A study of Mus musculus with 16 samples.

Results

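Gene expression and isoform use were compared between the striatum and the cortex of non-transgenic (NT) mice in 8 of 16 long-read RNA sequencing samples, whose other 8 come from the R6/2 mouse, a model of Huntington's disease. The members were chosen by their labels alone, as the 4 striatal and 4 cortical samples of genotype NT. The mice were 3-month-old males of the colony B6CBA-Tg(HDexon1)62Gpb/3J, and the NT mice lack the transgene that carries exon 1 of human HTT. No other agent or allele is named in the labels, and each sample is RNA of whole dissected tissue that holds every cell type of the region. The labels do not say whether a striatal and a cortical sample of the same number come from 1 mouse, so the p values measure the spread between these samples. Below, striatum 1 to 4 and cortex 1 to 4 name the samples, and values of single samples are given in that order. Striatum 1 and 2 were deposited as 2 files each, which were summed here, and the other 6 samples as 1 file each.

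The striatum is the input nucleus of the basal ganglia, and most of its neurons are GABAergic projection neurons that receive glutamate from the cortex and dopamine from the midbrain. Those of the direct pathway carry the dopamine receptor D1 and the peptides substance P and dynorphin, and those of the indirect pathway carry the receptor D2, an adenosine receptor (Adora2a) and enkephalin. The cortex is built mainly of glutamatergic pyramidal neurons, with several classes of GABAergic interneurons among them. In Iso-seq, whole cDNA molecules are sequenced, which gives the full chain of exons of each transcript, and TALON assigns the read to a known isoform or to a class of unannotated ones.

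The libraries differed in depth and in read length. Between 317050 and 1496196 reads were counted per striatal sample and between 252885 and 581942 per cortical sample. Of these, 251336 to 1349108 and 202664 to 492906 were gene reads, assigned to known, ISM, NIC or NNC isoforms of known genes. The mean isoform length per read was 2225, 2142, 1886 and 1620 nt in striatum 1 to 4 and lay between 1851 and 2101 nt in the cortex. Transcripts of the mitochondrial genome made up 3.23% and 3.28% of gene reads in striatum 3 and 4, 0.408% and 0.763% in striatum 2 and 1, and 0.332% to 0.575% in the cortex. Ttr, which encodes the transthyretin of the choroid plexus, had 9867 CPM (counts scaled to the normalized library size) in striatum 3, 855 in cortex 4 and 340.2 in striatum 4, against 4.01 to 43.4 in the other 5 samples. Striatum 3 and 4, the samples of 1 file, thus had shorter isoforms and more mitochondrial reads than striatum 1 and 2. Within the striatum these 2 values moved with the number of files, while the cortical samples, all of 1 file, had low mitochondrial shares. Gene counts with the number of files and with isoform length as terms are given below, and the cause of their change was not tested.

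**Figure D1:**
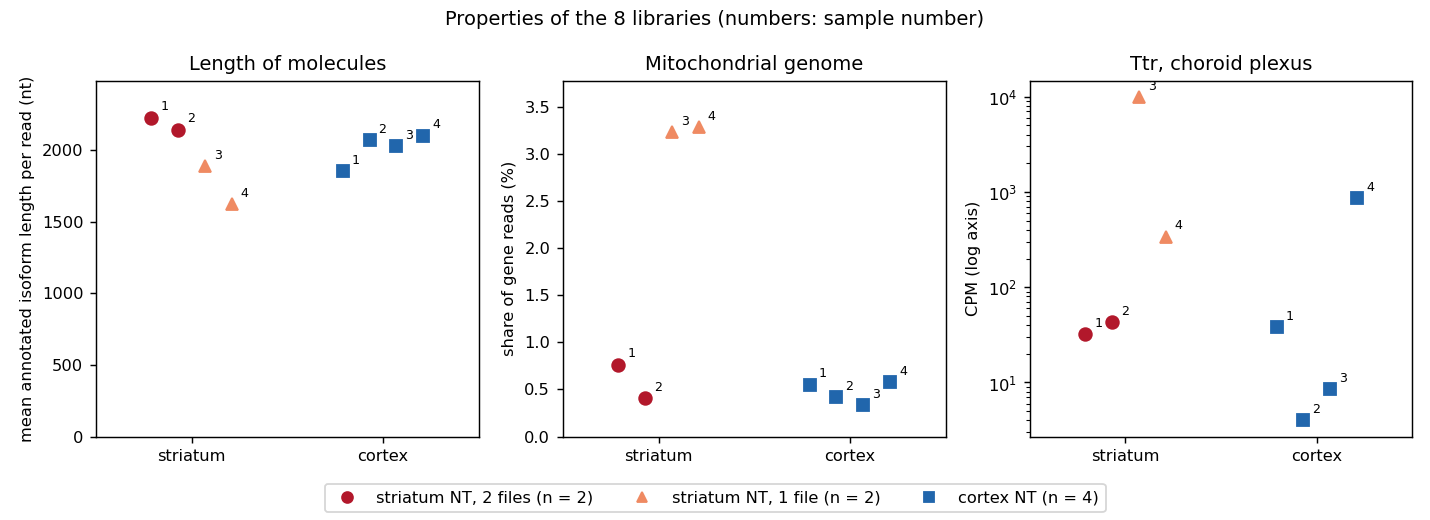
The panels plot the mean isoform length per read (nt), the mitochondrial share of gene reads (%) and the Ttr level (CPM, log axis), with 1 numbered point per NT sample and striatal samples of 1 and 2 files marked apart. Striatum 3 and 4 have the highest mitochondrial shares (3.23% and 3.28%), and Ttr is highest in striatum 3 at 9867 CPM.

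Reads were found for 19608 genes, and 6168 passed the filter on low counts and were tested with edgeR's quasi-likelihood test. At an adjusted p under 0.05, 362 genes (5.87% of those tested) were higher in the striatum and 220 genes (3.57%) were higher in the cortex. The 4 values of 1 region lay wholly above those of the other for 338 of the former and 209 of the latter. Over all 6168 tested genes, called or not, the regions did not overlap for 1039. The median log2 fold change of all tested genes was 0.12, and with upper-quartile normalization, which moved it to -0.01, the split was 280 to 264. With the 2 libraries of highest choroid plexus level left out, striatum 3 and cortex 4, the counts were 117 and 62. Without cortex 2 alone, 211 genes were higher in the striatum, and without striatum 3, cortex 2 or cortex 4, 134, 141 and 131 were higher in the cortex. Because the samples are bulk tissue, more cells of a type and more RNA per cell cannot be told apart for any gene.

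The largest differences in favour of the striatum were in genes of its projection neurons. Penk (chr4:4133531-4138819, minus strand), which encodes proenkephalin, the precursor of the enkephalins, had 4193, 5573, 5761 and 6284 CPM in the striatum and 114, 144, 124 and 115 CPM in the cortex. The 2 groups were far apart and each was narrow, and the log2 fold change was 5.45 ± 0.31 (SE, edgeR adjusted p = 5.33e-06). Tac1, the precursor of substance P, had striatal levels of 85.3, 150.3, 231 and 276 CPM and cortical levels of 20.3, 28, 21.5 and 12.6 CPM. Its log2 fold change was 3.14 ± 0.42 (SE, edgeR adjusted p = 0.000859). Pdyn, the precursor of dynorphin, differed to a like degree, with a log2 fold change of 3.11 ± 0.38 (SE, edgeR adjusted p = 0.000503). The peptides of the indirect and of the direct pathway were thus both higher in the striatum. None of the 3 overlapped between regions, which for Penk was part of the rule that chose it.

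The receptors of the same neurons were read a few times or not at all in some cortical samples. Drd2 (chr9:49340627-49408177, plus strand), the dopamine receptor D2, had 48.1, 52.3, 50.9 and 128 CPM in the striatal samples and 0, 0, 8.58 and 1.8 CPM in the cortical ones. Over the region, its CPM ratio rested on 3 cortical reads and was 31.2 (95% counting interval 10.5 to 153), and striatum 4 stood above the other 3 striatal samples. Adora2a, the adenosine receptor of these neurons, had 282, 147, 200.1 and 112 CPM in the striatum and 15.3, 10.01, 4.29 and 21.6 CPM in the cortex, with a log2 fold change of 3.75 ± 0.42 (SE, edgeR adjusted p = 0.00039). Gpr6 (chr10:41069977-41072285, minus strand), an orphan receptor coupled to G proteins, reached a log2 fold change of 4.58 ± 0.35 (SE, edgeR adjusted p = 3.18e-05). Its levels were 93.7, 147, 110.2 and 122 CPM in the striatum and 2.54, 6.01, 4.29 and 5.41 CPM in the cortex. Drd1, the receptor of the direct pathway, did not pass the filter on low counts and was not tested. It had striatal levels of 107, 12, 61 and 42.5 CPM and cortical levels of 7.63, 2.0, 0 and 1.8 CPM, so that its lowest striatal sample lay close to the highest cortical one.

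Downstream of these receptors lies the cAMP pathway, whose striatal forms of G protein, cyclase, phosphodiesterase and phosphatase inhibitor all stood out. Gng7 (chr10:80948624-81014945, minus strand), a γ subunit that pairs with the olfactory-type Gα subunit in striatal neurons, had 1545, 1584, 1288 and 574 CPM in the striatal samples and 30.5, 34, 8.58 and 68.5 CPM in the cortical ones. This was a log2 fold change of 5.07 ± 0.55 (SE, edgeR adjusted p = 0.000299). Gnal, that α subunit, had a log2 fold change of 3.26 ± 0.37 (SE, edgeR adjusted p = 0.00039), and Adcy5, the adenylyl cyclase of striatal neurons, of 2.89 ± 0.31 (SE, edgeR adjusted p = 0.000304). Ppp1r1b (chr11:98348404-98357796, plus strand) encodes DARPP-32, an inhibitor of protein phosphatase 1 that protein kinase A switches on. It had 3160.0, 5349, 3791 and 2685 CPM in the striatum and 211, 170.2, 129 and 149.6 CPM in the cortex. edgeR gave a log2 fold change of 4.50 ± 0.35 (SE, edgeR adjusted p = 3.18e-05). Pde10a (chr17:8525372-8986648, plus strand) and Pde1b, which degrade cyclic nucleotides, were higher by log2 4.51 ± 0.41 (SE, edgeR adjusted p = 9.57e-05) and 4.07 ± 0.47 (SE, edgeR adjusted p = 0.00039). Rgs9 (chr11:109225355-109298129, minus strand), which speeds GTP hydrolysis by Gα subunits, had striatal levels of 688, 859, 643 and 723 CPM and cortical levels of 17.8, 24, 12.9 and 36.1 CPM. The log2 difference was 4.93 ± 0.36 (SE, edgeR adjusted p = 2.60e-05). All 4 striatal samples exceeded all cortical samples for each gene named in this group. For Gng7, Ppp1r1b, Pde10a and Rgs9 this was part of the rule that chose them. Over all 6168 tested genes the regions did not overlap for 1039.

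In the list of dopamine and cAMP signalling, 21 of the 62 tested members (of 86 listed) were higher in the striatum and 5 in the cortex. Over all tested genes the shares were 5.87% and 3.57%. The tested members had a median log2 fold change of 0.63. The members higher in the cortex were Gnas, the ubiquitous stimulatory Gα subunit (log2 fold change -2.0 ± 0.36, SE, edgeR adjusted p = 0.00477), Gnai1, an inhibitory Gα subunit (log2 fold change -1.55 ± 0.25, SE, edgeR adjusted p = 0.00245), Pde1a (log2 fold change -1.79 ± 0.40, SE, edgeR adjusted p = 0.0162) and the orphan receptors Gpr22 (log2 fold change -1.84 ± 0.34, SE, edgeR adjusted p = 0.00609) and Gpr26 (log2 fold change -1.69 ± 0.35, SE, edgeR adjusted p = 0.0108). Gnas and Gnal, which encode stimulatory α subunits of the same kind, thus differed between the regions in opposite directions.

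**Figure D2:**
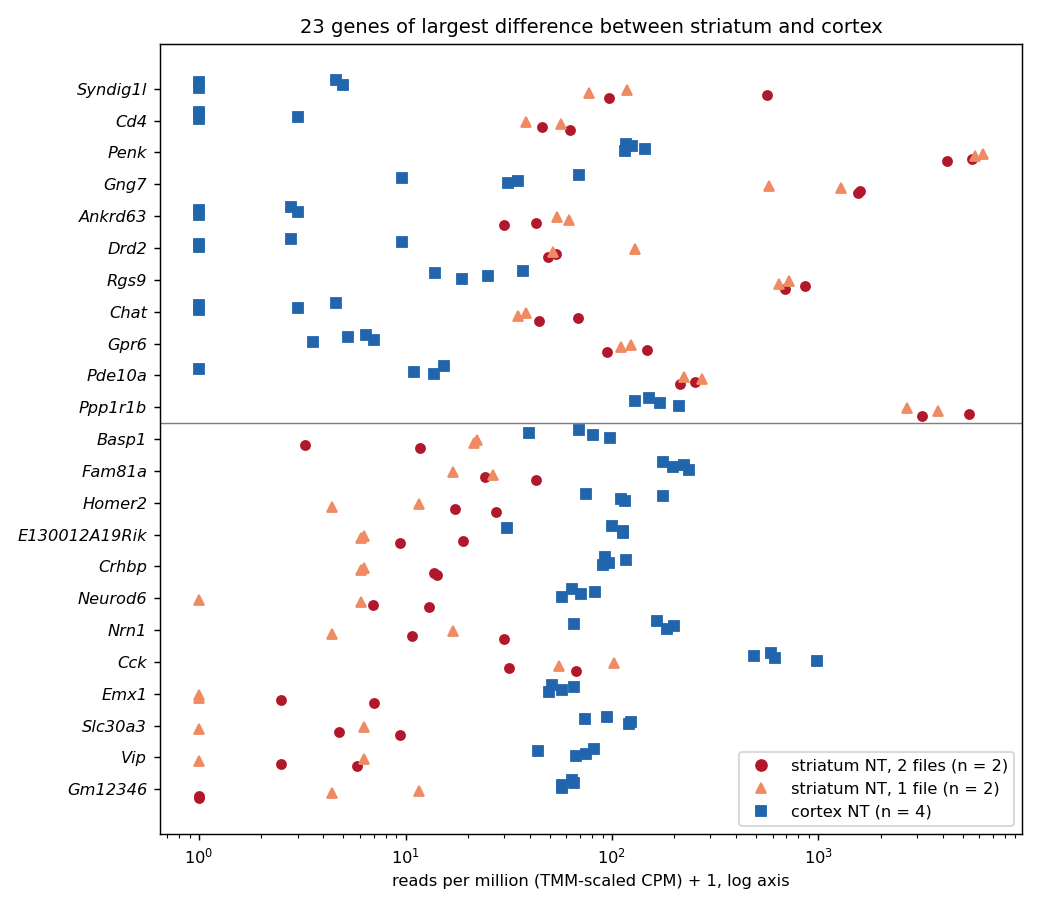
Each row is 1 of 23 genes among the 12 of largest log2 fold change in each direction, the x axis is CPM + 1 on a log scale, and each point is 1 NT sample, with striatal samples of 1 and 2 files marked apart. The 4 striatal and the 4 cortical points of each gene do not overlap, by the rule that chose the genes. Penk lies at 4193 to 6284 CPM in the striatum and 114 to 144 CPM in the cortex.

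The largest fold change over the 8 samples was that of Syndig1l (chr12:84677277-84698831, minus strand), a membrane protein of the family of the synapse differentiation inducer Syndig1, with 96.1, 561, 76.3 and 117 CPM in the striatal samples and 0, 4.01, 0 and 3.61 CPM in the cortical ones. The log2 fold change was 6.42 ± 0.94 (SE, edgeR adjusted p = 0.00145). Striatum 2 stood several times above the other striatal samples, and 2 cortical samples had no read. Without striatum 2 the log2 fold change of Syndig1l was 5.19, below those of Cd4 (5.98) and Penk (5.44). Cd4 (chr6:124864692-124888221, minus strand), known as a T cell co-receptor, had 61.3, 44.9, 55.9 and 37.2 CPM in the striatum and 0, 2.0, 0 and 0 CPM in the cortex. A single cortical read gave a ratio of 86.1 with a wide counting interval, 15.2 to 3422. Ankrd63 (chr2:118699103-118703963, minus strand) had striatal levels of 28.8, 41.9, 61 and 53.2 CPM and cortical levels of 0, 2.0, 0 and 1.8 CPM and rested on 2 cortical reads, with a ratio of 35.9 (9.74 to 299.7). Chat (chr14:32408203-32465989, minus strand), the choline acetyltransferase of cholinergic interneurons, had 43.3, 67.3, 33.9 and 37.2 CPM in the striatal samples and 0, 2.0, 0 and 3.61 CPM in the cortical ones, with a ratio of 29.1 (9.76 to 143). Lhx8, a transcription factor of the same interneurons, had a log2 fold change of 2.82 ± 0.53 (SE, edgeR adjusted p = 0.00633). The acetylcholine transporter Slc18a3 and the choline transporter Slc5a7 did not pass the filter, and Slc5a7 had 20.4, 16.4, 11.9 and 15.9 CPM in the striatum and 0, 2.0, 0 and 1.8 CPM in the cortex. The cholinergic genes were thus each read mainly in the striatum.

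The list of 40 genes of striatal projection neurons was used to check the region labels. Its summed level was 16545 to 20859 CPM in the striatal samples and 1171 to 1648 CPM in the cortical ones, so no sample went against its label. Of the listed genes, 29 were tested, and these were higher in the striatum, with log2 fold changes between 1.17 (Rgs7bp) and 6.42 (Syndig1l). A gene of high striatal level passes the filter through that region alone, so the share of tested members that differed is set in part by the filter, and 11 members, Drd1 among them, were not tested.

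Regulators of transcription differed in both directions. Rxrg (chr1:167598384-167639623, plus strand) and Rarb, which encode retinoid receptors, had log2 fold changes of 3.58 ± 0.29 (SE, edgeR adjusted p = 4.85e-05) and 2.76 ± 0.40 (SE, edgeR adjusted p = 0.00136). Rxrg had striatal levels of 173, 182, 178 and 138 CPM and cortical levels of 10.2, 16, 8.58 and 18 CPM. Isl1, a LIM homeodomain factor of direct-pathway and cholinergic neurons, was higher in the striatum by 2.70 ± 0.43 (SE, edgeR adjusted p = 0.00237), Foxp1 by 2.41 ± 0.29 (SE, edgeR adjusted p = 0.000428), Foxp2 by 2.13 ± 0.36 (SE, edgeR adjusted p = 0.00357) and Meis2 by 1.83 ± 0.23 (SE, edgeR adjusted p = 0.000549). Higher in the cortex were Emx1 (chr6:85187438-85204462, plus strand), a homeobox gene of the pallium, and Neurod6 (chr6:55677822-55681263, minus strand), a bHLH factor of pyramidal neurons. Emx1 had 6.01, 1.5, 0 and 0 CPM in the striatal samples and 48.3, 56.1, 64.4 and 50.5 CPM in the cortical ones. Its log2 fold change was -4.40 ± 0.52 (SE, edgeR adjusted p = 0.000393). Neurod6 had 12, 5.98, 5.09 and 0 CPM in the striatum and 56, 70.1, 81.5 and 63.1 CPM in the cortex. This was a log2 fold change of -3.22 ± 0.40 (SE, edgeR adjusted p = 0.000529). Satb1 (log2 fold change -2.72 ± 0.40, SE, edgeR adjusted p = 0.00148), Mef2c (log2 fold change -1.88 ± 0.27, SE, edgeR adjusted p = 0.00137), Sox5 (log2 fold change -2.12 ± 0.43, SE, edgeR adjusted p = 0.00949) and Nfix (log2 fold change -1.43 ± 0.26, SE, edgeR adjusted p = 0.00494) followed in the same direction. Of the 66 listed transcription factors of forebrain neurons 27 were tested, and 6 were higher in the striatum and 6 in the cortex. The shares of all tested genes were 5.87% and 3.57%. The median of the tested members was -0.02 on the log2 scale.

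Of the genes higher in the cortex, the largest fold change was that of Gm12346 (chr11:77293444-77295898, plus strand), a transcribed processed pseudogene, with striatal levels of 0, 0, 3.39 and 10.6 CPM and cortical levels of 56, 56.1, 64.4 and 63.1 CPM. edgeR gave a log2 fold change of -5.16 ± 0.66 (SE, edgeR adjusted p = 0.000671). Reads of a processed pseudogene may be split with its parent gene, so its level is uncertain. Vip (chr10:5639218-5647617, plus strand), the vasoactive intestinal peptide of a class of cortical interneurons, had 4.81, 1.5, 0 and 5.32 CPM in the striatal samples and 66.1, 74.1, 42.9 and 81.1 CPM in the cortical ones. The log2 difference was -4.69 ± 0.50 (SE, edgeR adjusted p = 0.000282). Cck (chr9:121489824-121495694, minus strand), the cholecystokinin of pyramidal neurons and interneurons, had 66.1, 30.6, 54.3 and 101 CPM in the striatum and 979, 615, 489 and 591 CPM in the cortex. The log2 fold change was -3.47 ± 0.40 (SE, edgeR adjusted p = 0.00039). Crhbp (chr13:95431371-95444924, minus strand), which binds corticotropin-releasing hormone, had a log2 fold change of -3.22 ± 0.32 (SE, edgeR adjusted p = 0.000208). Neuropeptide precursors as a list therefore moved both ways among 15 tested of 22. Penk, Tac1, Pdyn and Scg2 were higher in the striatum and Vip, Cck and Chgb in the cortex. Over all tested genes 5.87% and 3.57% were called in these directions.

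Slc30a3 (chr5:31086106-31108237, minus strand) encodes the transporter that fills glutamatergic vesicles with zinc, and had striatal levels of 8.41, 3.74, 0 and 5.32 CPM and cortical levels of 119.6, 122, 72.9 and 93.8 CPM. Its log2 fold change was -4.49 ± 0.48 (SE, edgeR adjusted p = 0.000282). Nrn1 (chr13:36725361-36735131, minus strand), a neurite-promoting protein of excitatory neurons, had 28.8, 9.72, 3.39 and 15.9 CPM in the striatal samples and 183, 198, 64.4 and 164 CPM in the cortical ones. This was a log2 fold change of -3.40 ± 0.52 (SE, edgeR adjusted p = 0.00184). Homer2 (chr7:81600481-81707527, minus strand), a scaffold of the postsynaptic density, had 26.4, 16.4, 3.39 and 10.6 CPM in the striatum and 114, 110.1, 176 and 73.9 CPM in the cortex. edgeR gave a log2 fold change of -2.89 ± 0.45 (SE, edgeR adjusted p = 0.00227). In the striatum these 3 genes were read at a small part of their cortical level, and Slc30a3 was not read in striatum 3. Basp1 (chr15:25363277-25413764, minus strand), an abundant membrane protein of growth cones and presynaptic terminals, had a log2 fold change of -2.70 ± 0.53 (SE, edgeR adjusted p = 0.00817), Fam81a (chr9:70088511-70142560, minus strand) of -2.87 ± 0.30 (SE, edgeR adjusted p = 0.000247) and E130012A19Rik (chr11:97627389-97629702, minus strand; Epop in a later annotation) of -3.05 ± 0.47 (SE, edgeR adjusted p = 0.00199). The call of each of the 12 largest genes in either direction held with the striatal samples of 1 file, with those of 2 files and without any 1 of the 8 samples.

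In the list of cortical excitatory neurons, 1 of the 14 tested members (of 36 listed) was higher in the striatum and 8 in the cortex. The shares of all tested genes were 5.87% and 3.57%. Over the tested members, the median log2 fold change was -1.10. The summed level of the 36 genes was 716 to 864 CPM in the striatal samples and 1742 to 2857 CPM in the cortical ones. Slc17a7, the vesicular glutamate transporter of pyramidal neurons, did not pass the filter, with striatal levels of 9.61, 5.98, 1.7 and 0 CPM and cortical levels of 33.1, 26, 12.9 and 25.2 CPM. Lamp5 and Kcnv1 were the called members of smallest difference (-1.04 and -1.15 on the log2 scale). Syt6, a synaptotagmin that also marks layer 6 neurons, went the other way and was higher in the striatum, with 52.9, 64.3, 49.2 and 47.8 CPM in the striatal samples and 33.1, 14, 12.9 and 9.01 CPM in the cortical ones (log2 fold change 1.67 ± 0.37, SE, edgeR adjusted p = 0.0158), although its adjusted p was 0.0591 to 0.0734 without cortex 2 or 4. The list as a sum was thus read in the striatal samples at a lower level. The sum does not show that each gene was present, and Emx1, Neurod6 and Slc17a7 had no read in striatum 4.

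Called genes of GABA synthesis and breakdown were higher in the striatum. Abat, the GABA transaminase, had a log2 fold change of 1.69 ± 0.25 (SE, edgeR adjusted p = 0.00164). Gad1 and Gad2, the glutamate decarboxylases, had log2 fold changes of 1.45 ± 0.35 (SE, edgeR adjusted p = 0.0212) and 0.84 ± 0.23 (SE, edgeR adjusted p = 0.0418). For Gad1 the adjusted p was 0.0654 to 0.0713 without striatum 1 or cortex 1, 2 or 3, and for Gad2 it was 0.0641 to 0.156 without striatum 1, 2 or 3 or cortex 1, 2, 3 or 4. With the striatal samples of 1 file it was 0.0745 for Gad1 and 0.143 for Gad2. Gabbr2, a subunit of the GABA B receptor, was higher in the cortex (log2 fold change -2.35 ± 0.37, SE, edgeR adjusted p = 0.00222). In this list, 4 of the 16 tested members (of 20 listed) were higher in the striatum and 1 in the cortex. Of all tested genes, 5.87% and 3.57% were called in these 2 directions, and the 1 cortical call among 16 was near its share. The tested members had a median log2 fold change of 0.26. Among GABAergic interneuron markers, 2 of the 9 tested members (of 25 listed) were higher in the striatum and 2 in the cortex, with a median log2 fold change of -0.15, and the 4 called ones were Gad1 and Gad2 on the striatal side and Vip and the channel gene Kcnc2 (log2 fold change -1.63 ± 0.39, SE, edgeR adjusted p = 0.0223) on the cortical side. The glutamate list had 1 called member of 13 tested, Grm5, which encodes the metabotropic receptor mGluR5 (log2 fold change 1.64 ± 0.43, SE, edgeR adjusted p = 0.0353, and 0.0764 to 0.0943 without striatum 3 or cortex 1, 2, 3 or 4, and 0.0964 with the striatal samples of 2 files). This 1 call among 13 was also near the 5.87% of all tested genes called on the striatal side.

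Genes of calcium and Ras signalling were called in both directions. Hpca, the calcium sensor hippocalcin, had 5093, 6235, 5423 and 5518 CPM in the striatum and 878, 753, 420.4 and 741 CPM in the cortex. The log2 difference was 2.99 ± 0.31 (SE, edgeR adjusted p = 0.000246). Pcp4, a modulator of calmodulin, had striatal levels of 823, 958, 4511 and 9468 CPM and cortical levels of 478, 390.5, 326 and 391 CPM. The log2 fold change was 3.31 ± 0.70 (SE, edgeR adjusted p = 0.0121). Pcp4 was about equal in striatum 1 and 2 and several times higher in striatum 3 and 4, and its adjusted p was 0.05004 without cortex 2. Necab2, a calcium-binding protein, was higher by 2.89 ± 0.40 (SE, edgeR adjusted p = 0.00102) and Kcnip2, a calcium-binding subunit of A-type potassium channels, by 2.79 ± 0.44 (SE, edgeR adjusted p = 0.00242). Of the calcium and calmodulin list, 7 of the 41 tested members (of 52 listed) were higher in the striatum and 3 in the cortex, with a median log2 fold change of 0.13, the cortical ones being Necab3, Ncald and Camk2g. Over all tested genes the calls also lay more often on the striatal side (5.87% against 3.57%). Rasgrp2, an exchange factor that activates Rap1, had a log2 fold change of 2.92 ± 0.26 (SE, edgeR adjusted p = 9.57e-05), the small GTPase Rasd2 (Rhes) of 3.75 ± 0.72 (SE, edgeR adjusted p = 0.00672), the GTPase-activating protein Rap1gap of 1.71 ± 0.25 (SE, edgeR adjusted p = 0.00144) and the exchange factor Ngef of 1.62 ± 0.35 (SE, edgeR adjusted p = 0.0145). In that list of Ras and Rap regulators, 6 of the 13 tested members (of 22 listed) were higher in the striatum and 1 in the cortex. The median of the tested members was 0.71 on the log2 scale.

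Synaptic and membrane genes moved both ways. Vamp2, the vesicle SNARE synaptobrevin 2, was higher in the striatum (log2 fold change 2.48 ± 0.50, SE, edgeR adjusted p = 0.00894), and Stx1a, a SNARE of the plasma membrane, was higher in the cortex (log2 fold change -2.47 ± 0.32, SE, edgeR adjusted p = 0.000685). Vamp2 had 564, 247, 173 and 197 CPM in the striatal samples and 86.5, 58.1, 12.9 and 48.7 CPM in the cortical ones, and Stx1a had 112, 74.8, 62.7 and 47.8 CPM in the striatum and 448, 461, 279 and 505 CPM in the cortex. These 2 partners in vesicle fusion therefore differed between the regions in opposite directions. Doc2a, a calcium sensor of release, was higher in the cortex (log2 fold change -2.61 ± 0.45, SE, edgeR adjusted p = 0.00357), and Synpr, a vesicle protein, in the striatum (log2 fold change 1.81 ± 0.33, SE, edgeR adjusted p = 0.0054). Of the synaptic vesicle list, 4 of the 32 tested members (of 42 listed) were higher in the striatum and 6 in the cortex. Over the tested members, the median log2 fold change was -0.35. Of the ion channels, 4 of the 26 tested members (of 61 listed) were higher in the striatum and 5 in the cortex. The tested members had a median log2 fold change of -0.39. The shares over all tested genes were 5.87% and 3.57%. Kcnab1, a β subunit of potassium channels, had the largest striatal excess among them (log2 fold change 2.84 ± 0.35, SE, edgeR adjusted p = 0.000529), while Kcnj9, an inward rectifier coupled to G proteins, had a log2 fold change of -2.23 ± 0.30 (SE, edgeR adjusted p = 0.000836), Cacna2d1, a calcium channel subunit, of -1.50 ± 0.24 (SE, edgeR adjusted p = 0.00263), and Kcnma1, the BK channel, of -1.60 ± 0.41 (SE, edgeR adjusted p = 0.0313), with an adjusted p of 0.0532 to 0.0813 without striatum 2 or cortex 1, 2, 3 or 4.

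Receptors for peptides and histamine were mostly too low to test, and the called ones of 4 tested were Gpr83 (log2 fold change 2.99 ± 0.33, SE, edgeR adjusted p = 0.000337) and the histamine receptor Hrh3 (log2 fold change 2.07 ± 0.24, SE, edgeR adjusted p = 0.00039), both higher in the striatum. In the adhesion list, 1 of the 22 tested members (of 66 listed) was higher in the striatum and 4 in the cortex. The median of the tested members was 0.03 on the log2 scale. Cdh13, a cadherin without a cytoplasmic tail, was the striatal one (log2 fold change 1.58 ± 0.36, SE, edgeR adjusted p = 0.0177), and Nrn1, Ntm (log2 fold change -1.67 ± 0.39, SE, edgeR adjusted p = 0.0194, and 0.0625 without striatum 3) and Ephb6 were among the cortical ones. The striatal share was thus near the 5.87% of all tested genes, while 3.57% of all were called on the cortical side. Immediate early genes, which respond to neuronal activity, were called in the cortical direction alone, and these were Ier5 (log2 fold change -1.99 ± 0.46, SE, edgeR adjusted p = 0.0193), Ier2 (log2 fold change -1.72 ± 0.40, SE, edgeR adjusted p = 0.0193) and Jun (log2 fold change -1.65 ± 0.30, SE, edgeR adjusted p = 0.00508) among 11 tested. The adjusted p was 0.053 to 0.0583 without cortex 2 or 4 for Ier5 and 0.0568 to 0.0691 without cortex 1 or 4 for Ier2. The summed level of the 22 listed immediate early genes was 502 to 739 CPM in the striatal samples and 802 to 1242 CPM in the cortical ones.

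**Figure D3:**
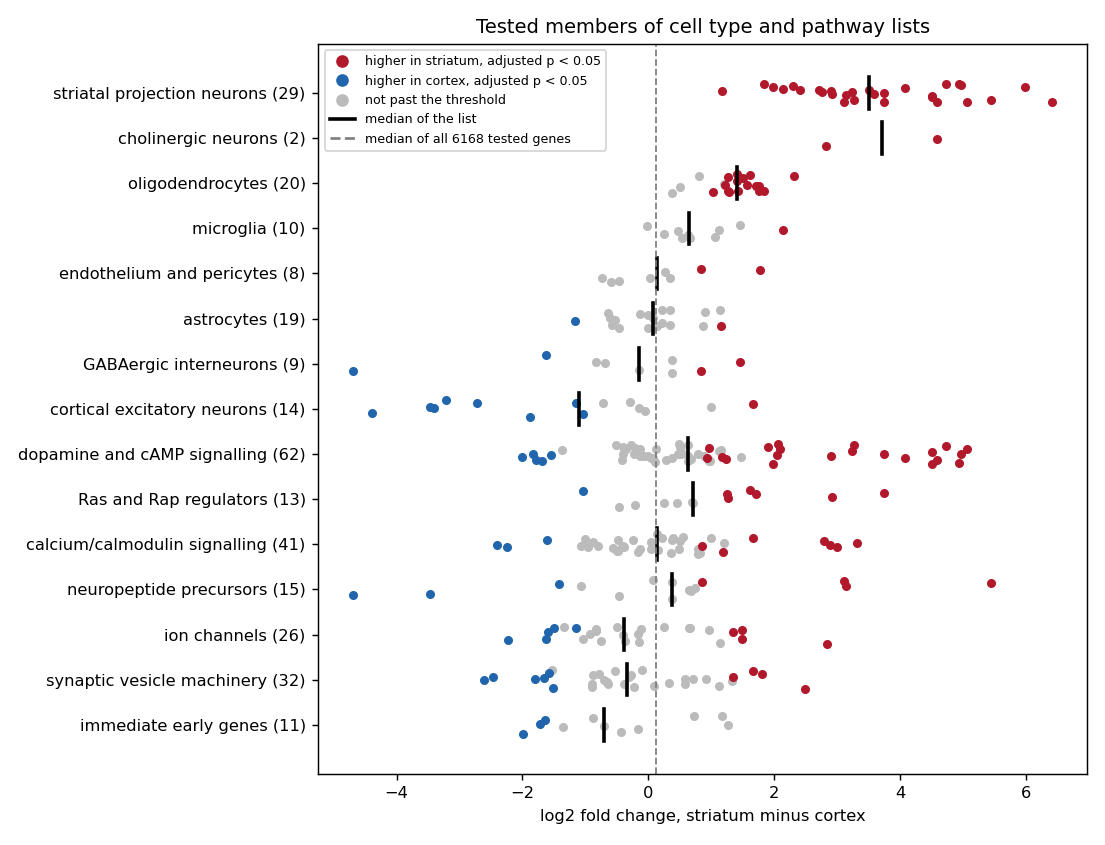
Each row is 1 gene list, the x axis is the log2 fold change of striatum over cortex, and each point is 1 tested member (number in parentheses), coloured where the edgeR adjusted p was under 0.05, with a bar at the list's median and a dashed line at the median of all tested genes, 0.12. Points of striatal projection neurons (29 tested) lie right of 0 and most called cortical excitatory genes lie left of it, and the oligodendrocyte points lie mostly right of 0 with a median of 1.40.

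Myelin genes were higher in the striatum. Mbp, which encodes myelin basic protein, had striatal levels of 15515, 21866, 11622 and 9904 CPM and cortical levels of 3111, 3418, 1248 and 4009.8 CPM. Its log2 fold change was 2.32 ± 0.40 (SE, edgeR adjusted p = 0.00403). Trf, the transferrin that oligodendrocytes make, had 4279.8, 3149, 2643 and 2536 CPM in the striatal samples and 664, 679, 1029.6 and 1359 CPM in the cortical ones. This was a log2 fold change of 1.76 ± 0.33 (SE, edgeR adjusted p = 0.00637). Mal, a lipid raft protein of myelin, and Ugt8a, which makes its galactolipids, had log2 fold changes of 1.76 ± 0.32 (SE, edgeR adjusted p = 0.00496) and 1.84 ± 0.34 (SE, edgeR adjusted p = 0.0052). For Mbp and Trf the lowest striatal value lay above the highest cortical one. In the oligodendrocyte list, 16 of the 20 tested members (of 22 listed) were higher in the striatum and 0 in the cortex. The shares of all tested genes were 5.87% and 3.57%. Over the tested members, the median log2 fold change was 1.40. The number called was 11 with the striatal samples of 1 file, 15 with those of 2 files, 15 with the number of files as a term and 5 without striatum 3 and cortex 4. The summed level was 20239 to 35900.3 CPM in the striatal samples and 5581 to 10181 CPM in the cortical ones, without overlap. Olig1, a factor of the lineage counted with its precursors, had a log2 fold change of 1.34 ± 0.27 (SE, edgeR adjusted p = 0.00987), and an adjusted p of 0.0713 with the striatal samples of 1 file.

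Other non-neuronal cell types differed in few genes. Of the astrocyte markers, 1 of the 19 tested members (of 22 listed) was higher in the striatum and 1 in the cortex. The tested members had a median log2 fold change of 0.07. Ntsr2, a neurotensin receptor of astrocytes, was the striatal one (log2 fold change 1.16 ± 0.28, SE, edgeR adjusted p = 0.024, and 0.0519 to 0.074 without striatum 1 or 3 or cortex 1, 3 or 4), and Aqp4, the water channel of astrocyte endfeet, the cortical one (log2 fold change -1.16 ± 0.27, SE, edgeR adjusted p = 0.020, and 0.0522 to 0.0548 without cortex 1 or 2). Of 10 microglial genes tested, Laptm5, a lysosomal membrane protein, was higher in the striatum (log2 fold change 2.15 ± 0.55, SE, edgeR adjusted p = 0.0302, and 0.0539 to 0.117 without striatum 1 or 2 or cortex 1, 2 or 3). Of 8 endothelial and pericyte genes, Ly6c1 (log2 fold change 1.77 ± 0.47, SE, edgeR adjusted p = 0.0357) and Itm2a (log2 fold change 0.83 ± 0.23, SE, edgeR adjusted p = 0.0396) were, with adjusted p of 0.0878 to 0.122 without striatum 3 or cortex 2, 3 or 4 and of 0.0527 to 0.145 without striatum 1, 2, 3 or 4 or cortex 1, 2, 3 or 4. The adjusted p of Ly6c1 was 0.0919 with the striatal samples of 2 files and that of Itm2a 0.173 with those of 1 file. None of these 5 calls held without every sample in turn. Over all tested genes 5.87% and 3.57% were called in the 2 directions, and the 1 call in each direction among 19 astrocyte genes was near that background.

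Transcripts of the mitochondrial genome were higher in the striatum for 8 of 11 tested, against 5.87% of all tested genes. The median of the tested members was 2.58 on the log2 scale. mt-Atp6, a subunit of ATP synthase, had 156, 94.9, 579.8 and 1154 CPM in the striatum and 56, 50.1, 55.8 and 88.3 CPM in the cortex. edgeR gave a log2 fold change of 2.94 ± 0.69 (SE, edgeR adjusted p = 0.0194). The high values were those of striatum 3 and 4, and with the striatal samples of 2 files 1 of these transcripts was called. The adjusted p of mt-Atp6 was 0.0645 to 0.0745 without cortex 1, 2 or 3.

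Isoform use within genes was compared over complete reads, those of known isoforms and of the classes NIC (a new combination of known splice sites) and NNC (with a new splice site). Usage is the share of a gene's complete reads that an isoform takes. Of 3694 genes with at least 2 isoforms of 10 reads or more, 166 had an unadjusted Simes p under 0.05 in edgeR's diffSpliceDGE. This is a smaller share than the 0.05 that chance alone would give. At a Simes p adjusted by Benjamini-Hochberg under 0.05, 10 genes (0.271%) differed between the regions. Among them were Gng7 (9.29e-05), Pea15a (0.0149), Osbpl1a (0.0167), Tpm1 (0.0167), Rtn1 (0.0188), Fam131a (0.024), Apbb1 (0.024), Actg1 (0.0333) and Nkain4 (0.0333). Adjusted p values are in parentheses. Gng7, Osbpl1a, Actg1 and Nkain4 do not meet the rule for named genes and are described because they were called, after their values were seen. These calls depended on single samples, and their number was 3 without cortex 1, 1 without cortex 2, striatum 2 or striatum 3, 0 without cortex 4, 6 and 7 without striatum 1 and cortex 3, and 11 without striatum 4. Of 95 genes listed for splicing regulated by tissue, 70 were tested, and Tpm1, Rtn1 and Apbb1 were called.

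Tpm1 encodes α-tropomyosin, which lies along actin filaments, and its isoforms differ in the exons at both ends. Transcription from an upstream promoter gives the long tropomyosins, and an internal promoter gives the short ones. The coding part of the 5′ and 3′ terminal exons of the long Tpm1-207 and of the short Tpm1-209, which the usage turned on, are shown as the annotation's transcripts give them, in capitals, since all of each is coding sequence (mm10, minus strand of chr9).
Tpm1-207 5′ exon, chr9:67049019-67049132: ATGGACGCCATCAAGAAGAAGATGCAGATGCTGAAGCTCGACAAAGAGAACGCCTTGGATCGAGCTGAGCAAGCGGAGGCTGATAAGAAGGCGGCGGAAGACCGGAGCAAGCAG
Tpm1-207 3′ exon, chr9:67028076-67028167: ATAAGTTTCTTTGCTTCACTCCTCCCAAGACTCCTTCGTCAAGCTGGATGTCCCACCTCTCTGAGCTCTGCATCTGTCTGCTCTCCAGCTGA
Tpm1-209 5′ exon, chr9:67043578-67043709: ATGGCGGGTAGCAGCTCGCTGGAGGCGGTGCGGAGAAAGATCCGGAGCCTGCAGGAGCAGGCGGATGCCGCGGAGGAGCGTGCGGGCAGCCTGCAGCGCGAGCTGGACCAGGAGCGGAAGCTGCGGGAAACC
Tpm1-209 3′ exon, chr9:67024492-67024565: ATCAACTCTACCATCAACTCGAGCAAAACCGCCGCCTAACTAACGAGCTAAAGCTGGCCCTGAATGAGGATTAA
The coding 5′ exons are 114 and 132 nt long and the coding 3′ exons 92 and 74 nt, so the proteins begin and end with different residues.

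Tpm1-209 made up 17.2%, 13.8%, 6.41% and 8.18% of complete Tpm1 reads in striatum 1 to 4 and 51.3%, 48.2%, 61.4% and 59.8% in cortex 1 to 4. It was the main form of the cortex and a minor form of the striatum (11.4 ± 5.0% of the complete striatal reads and 55.2 ± 6.41% of the complete cortical reads). Tpm1-207 went the other way, with 20.3 ± 3.15% of the complete striatal reads and 4.47 ± 3.0% of the complete cortical reads. Counted by 5′ exon over known isoforms, the short tropomyosins took 27.6%, 22.3%, 12.4% and 12.3% of the striatal reads and 67.1%, 60.3%, 77.5% and 69% of the cortical ones. The striatal reads by this count were 51, 87, 28 and 13 and the cortical ones 49, 47, 31 and 60. The difference was past the threshold with the striatal samples of 1 file (adjusted p = 0.00048), with those of 2 files (0.0328) and with the number of files as a term (0.000289). It was not past it with the first file only (0.0976), with ISM isoforms added (0.257) or with a replicate block (0.0714). Without 1 sample, the adjusted p ranged from 0.0142 to 0.295, the highest without striatum 3. Tpm1-219, a processed transcript of 4 exons, differed between the striatal samples themselves, with 6.9%, 12.3%, 37.6% and 47.3%, and was highest in the samples of 1 file. It starts with the upstream 5′ exon and is part of the count by 5′ exon. Of the known reads it took 7.57%, 12.8%, 38.9% and 49.1% in striatum 1 to 4. The low shares of the short forms in striatum 3 and 4 thus rest in part on it.

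In 4 other called genes the forms that differed also start at different 5′ exons. Rtn1 encodes reticulon 1, a protein that shapes the endoplasmic reticulum, and its long form Rtn1-202 starts upstream of the short form Rtn1-201. Gng7-203 and Gng7-202, 2 forms of the G protein subunit described above, start at separate promoters too. The RefSeq promoters of these starts (build GRCm38.p6, minus strand) are shown because the regions differed in which start was used, in lower case for the 250 bases before the start and in capitals for the 50 bases after it.
Rtn1-202 promoter, chr12:72409005-72409304: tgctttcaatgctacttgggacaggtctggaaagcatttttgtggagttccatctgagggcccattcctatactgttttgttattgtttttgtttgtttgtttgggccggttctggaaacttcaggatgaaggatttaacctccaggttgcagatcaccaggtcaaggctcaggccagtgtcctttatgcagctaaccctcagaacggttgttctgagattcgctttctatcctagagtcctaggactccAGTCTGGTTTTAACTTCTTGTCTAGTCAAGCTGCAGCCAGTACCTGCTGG
Rtn1-201 promoter, chr12:72236678-72236977: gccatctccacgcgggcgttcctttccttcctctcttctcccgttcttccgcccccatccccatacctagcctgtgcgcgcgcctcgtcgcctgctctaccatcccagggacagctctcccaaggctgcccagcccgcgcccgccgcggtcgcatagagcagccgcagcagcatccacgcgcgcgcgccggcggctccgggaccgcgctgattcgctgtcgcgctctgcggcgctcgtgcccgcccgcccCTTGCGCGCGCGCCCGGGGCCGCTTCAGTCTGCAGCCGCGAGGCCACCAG
Gng7-203 promoter, chr10:81014876-81015175: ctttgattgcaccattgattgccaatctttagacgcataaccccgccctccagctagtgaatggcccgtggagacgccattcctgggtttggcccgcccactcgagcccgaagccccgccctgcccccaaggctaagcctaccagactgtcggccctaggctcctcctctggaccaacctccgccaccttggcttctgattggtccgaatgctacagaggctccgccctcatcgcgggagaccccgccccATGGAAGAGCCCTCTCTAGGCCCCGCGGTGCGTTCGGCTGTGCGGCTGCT
Gng7-202 promoter, chr10:81001316-81001615: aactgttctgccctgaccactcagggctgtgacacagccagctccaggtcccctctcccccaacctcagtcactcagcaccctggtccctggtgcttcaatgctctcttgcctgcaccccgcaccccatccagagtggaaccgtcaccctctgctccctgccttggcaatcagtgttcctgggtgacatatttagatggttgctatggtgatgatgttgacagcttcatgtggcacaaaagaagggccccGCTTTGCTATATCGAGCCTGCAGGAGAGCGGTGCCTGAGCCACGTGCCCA
The promoter of the long Rtn1 form had 46.3% GC and 3 CpG dinucleotides, and that of the short form 73.3% and 43. The promoter of Gng7-203 had 63.7% GC and 20 CpG dinucleotides, and that of Gng7-202 58% and 6. The medians were 52.7% and 7 over 32851 RefSeq promoters of the same length. On either strand, the GC box GGGCGG was in the promoters of Rtn1-201 and Gng7-203 and in 35.7% of all promoters, and TGACG, the core of the cAMP response element, was in that of Gng7-202 and in 20.8% of all. The TATA box TATAAA was in none of the 4 and in 13.6% of all. These are matches of letters only.

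Rtn1-202 took 39.8%, 32.5%, 22.5% and 11.1% of the reads of known Rtn1 isoforms in striatum 1 to 4 and 3.4%, 7.58%, 3.79% and 10.6% in cortex 1 to 4, by its 5′ exon. The long form was thus used more in each striatal sample than in any cortical one, but striatum 4 (11.1%) lay next to cortex 4 (10.6%). Among the striatal samples the share was in the order of the mean isoform length of the libraries, and the part of length in it was not tested. The adjusted p was 5.05e-05 with the samples of 2 files, 0.168 with those of 1 file and 0.000977 to 0.226 without 1 sample. With the number of files as a term it was 0.184. Gng7 was strongly striatal in level, and 2 to 34 of its known reads came from each cortical sample. Gng7-202 took 0.239%, 0.633%, 0% and 0% of them in the striatum and 27.3%, 6.25%, 0% and 26.5% in the cortex. The cortical shares rest on 3, 1, 0 and 9 reads, and the adjusted p was 0.274 without cortex 4 and under 0.05 without any other sample.

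Osbpl1a encodes an oxysterol-binding protein, and its form Osbpl1a-204, which has its own 5′ exon, took 3.77%, 1.39%, 0% and 0% of known reads in the striatum and 57.1%, 47.8%, 46.7% and 30.4% in the cortex. Every cortical share was above every striatal one, over 4, 11, 7 and 7 cortical reads of that form. Known Osbpl1a reads numbered 2 to 72 per sample. The share of striatum 4 rests on 2 of them and that of cortex 1 on 7, so single shares are uncertain. Apbb1 encodes Fe65, an adaptor that binds the amyloid precursor protein. Its form Apbb1-205, with a 5′ exon downstream of the main one, took 2.99%, 1.68%, 1.81% and 5.88% in the striatum and 23%, 15.7%, 15.8% and 13.4% in the cortex. The main form Apbb1-214 took 79.98 ± 6.44% of the complete striatal reads and 57 ± 6.34% of the complete cortical reads. Besides Apbb1-205, several unannotated forms of class NIC took larger mean shares in the cortex, the most read of them 3.94 ± 1.97% of the complete striatal reads and 11.1 ± 2.51% of the complete cortical reads. With the striatal samples of 1 file the adjusted p of Osbpl1a was 0.22 and that of Apbb1 0.20. With the number of files as a term they were 0.320 and 0.269. Without 1 sample they ranged from 0.00167 to 0.214 and from 0.00156 to 0.323.

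**Figure D4:**
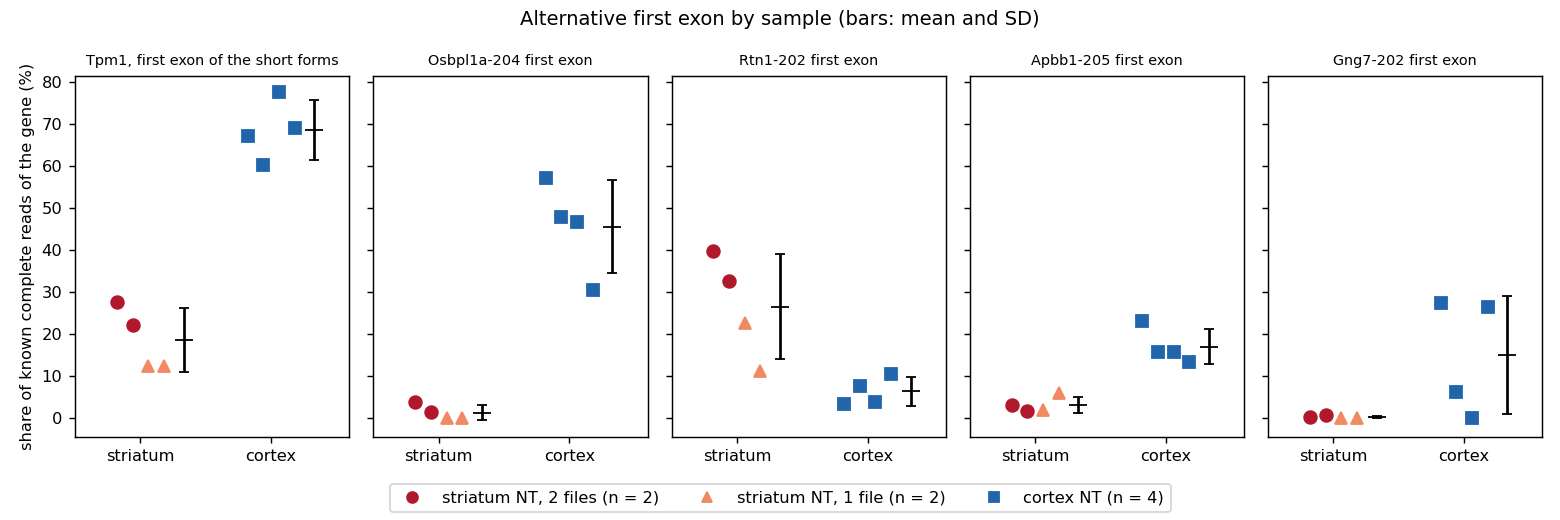
The y axis is the share (%) of a gene's reads of known isoforms that start with the named 5′ exon, with 1 point per NT sample, striatal samples of 1 and 2 files marked apart, and bars for the mean and SD of each region. The short Tpm1 forms take 12.3% to 27.6% in the striatum and 60.3% to 77.5% in the cortex, and the long Rtn1 form takes 11.1% to 39.8% and 3.40% to 10.6%.

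In other called genes the difference lay in other parts of the transcript. Fam131a, a gene of little known function, was read in the striatum mainly as an unannotated form of 7 exons (78.3 ± 8.95% of the complete striatal reads and 24 ± 4.27% of the complete cortical reads). Fam131a-201 was the main cortical form (11.1 ± 9.01% of the complete striatal reads and 70.7 ± 3.93% of the complete cortical reads). This was past the threshold with the striatal samples of 1 file (adjusted p = 0.0411) and of 2 files (adjusted p = 0.00632). With the number of files as a term the adjusted p was 0.0683. Without 1 sample it ranged from 0.00705 to 0.214, on 10 to 122 complete reads per sample. Pea15a, an astrocyte-rich phosphoprotein that binds ERK, had a short processed transcript, Pea15a-203, at 1.24 ± 0.276% of the complete striatal reads and 8.76 ± 3.66% of the complete cortical reads. Nkain4-202, which lacks 1 exon of Nkain4, was at 0.781 ± 1.56% of the complete striatal reads and 21.8 ± 12.1% of the complete cortical reads. This rests on as few as 8 complete reads in a sample. In Actg1, which encodes cytoplasmic γ-actin, the main form took 97.6% and 96.8%, and the form with the smallest p was an unannotated one that took under 0.5% of reads in each region. Without 1 sample the adjusted p ranged from 0.000977 to 0.149 for Pea15a, from 0.0473 to 0.249 for Nkain4 and from 0.00705 to 0.388 for Actg1. With the striatal samples of 1 file these 3 genes were not called, and with those of 2 files the adjusted p of Nkain4 was 0.154. With the number of files as a term none of these 3 was called (adjusted p between 0.169 and 0.729).

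Dgcr6 and Mbp met the rule for named genes without passing the threshold (adjusted p = 0.059 and 0.138). Dgcr6-206 was at 66.5 ± 2.69% of the complete striatal reads and 50.7 ± 5.85% of the complete cortical reads. The main Mbp form, Mbp-211, was at 88.9 ± 1.08% of the complete striatal reads and 83.1 ± 1.84% of the complete cortical reads, and Mbp-206, which has 1 exon more, at 5.88 ± 0.824% of the complete striatal reads and 9.86 ± 1.41% of the complete cortical reads. The shares of these forms did not overlap between the regions, but they were not the forms with the smallest p. In Dgcr6 that was an unannotated form of class NIC (0% of the complete striatal reads and 5.35 ± 2.78% of the complete cortical reads). In Mbp it was Mbp-205 (0.171 ± 0.095% of the complete striatal reads and 0.918 ± 0.601% of the complete cortical reads). The adjusted p of Mbp was 0.00244 with the striatal samples of 2 files and 0.776 with those of 1 file. For Dgcr6 it was 0.149 and 0.50.

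Cassette exons, which lie between exons that a read can also join directly, were taken from the annotation. Of 624 exons with at least 10 reads that include and 10 that skip them, 12 in either direction had an unadjusted p under 0.05 in the same edgeR test. This is a smaller share than the 0.05 that chance alone would give. After adjustment, 2 exons (0.321%) passed as more included in the striatum and none as more included in the cortex. Inclusion did not overlap between the regions for 37 of the 624 exons, called or not. A called exon of Nkain4, a membrane protein that interacts with the sodium pump, is shown in capitals between 15 bases of the flanking exons. With it are 2 exons of high read number, in Cltb, the clathrin light chain B, and in Ndrg4 (mm10, in the direction of transcription). The inclusion of these 2 did not overlap between the regions, by the rule that chose them, and their edgeR adjusted p was 0.9998.
Nkain4 exon, chr2:180935943-180936027, minus strand: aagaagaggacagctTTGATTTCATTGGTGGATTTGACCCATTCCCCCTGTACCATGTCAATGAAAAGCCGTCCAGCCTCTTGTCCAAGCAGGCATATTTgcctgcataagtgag
Cltb exon, chr13:54597026-54597079, minus strand: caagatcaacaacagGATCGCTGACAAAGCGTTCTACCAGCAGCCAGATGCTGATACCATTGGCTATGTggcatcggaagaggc
Ndrg4 exon, chr8:95712325-95712363, plus strand: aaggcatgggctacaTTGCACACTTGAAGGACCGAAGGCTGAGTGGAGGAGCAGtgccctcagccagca
The exons are 85, 54 and 39 nt long, and all but that of Nkain4 keep the reading frame.

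The Nkain4 exon was included in 96.8%, 100%, 100% and 100% of spanning striatal reads and in 76%, 95.2%, 62.5% and 64.7% of cortical ones (edgeR adjusted p = 0.034). It was skipped in 1 of 31 spanning reads in striatum 1 and in none of 57, 37 and 19 in the others. Cortex 2, at 95.2%, lay close to the striatal samples, and the adjusted p was between 0.0533 and 0.466 without striatum 2, 3 or 4 or cortex 1, 3 or 4. It was 0.218 with the striatal samples of 1 file and 0.273 with those of 2 files. The Cltb exon was included in 82%, 76.1%, 69.3% and 76.5% in the striatum and in 86.8%, 89.2%, 86% and 88.5% in the cortex, the only one of the printed exons with more inclusion in the cortex. The Ndrg4 exon was included in 92.3%, 92.6%, 96.7% and 94.6% and in 85.7%, 87.7%, 81.9% and 78.9%. Their differences of 11.7 and 10.5 percentage points did not pass the threshold. The other exons that met the rule, in Map2k7, Exog, 0610010K14Rik and Gpbp1, had at most 24 spanning reads in a cortical sample and an adjusted p of 0.9998.

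**Figure D5:**
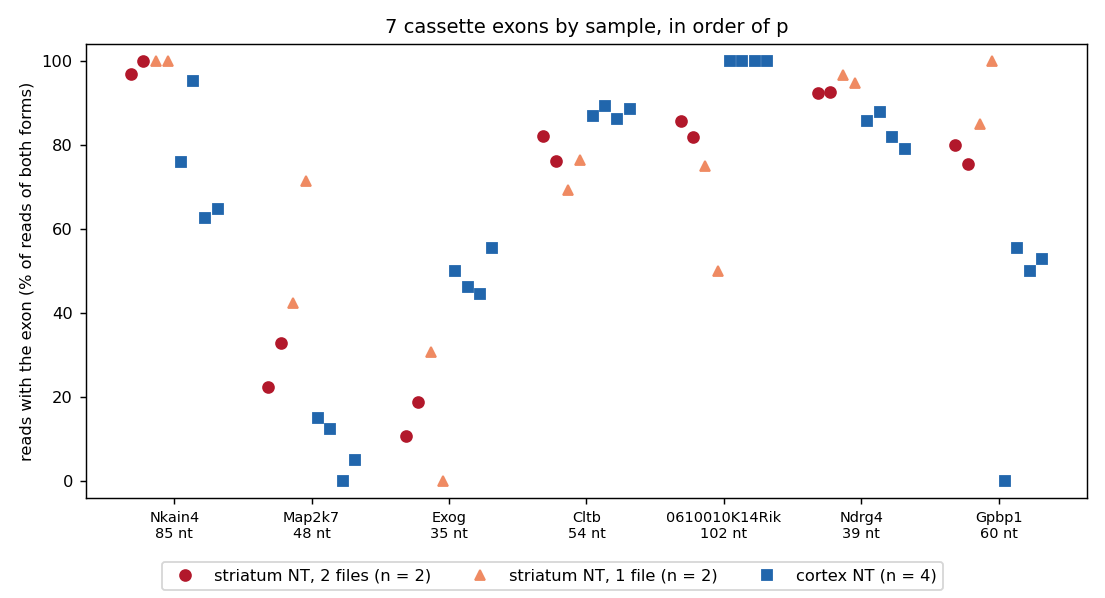
The y axis is the inclusion (%) of 7 annotated cassette exons in reads that span them, with 1 point per NT sample and striatal samples of 1 and 2 files marked apart. The striatal and cortical points of each exon do not overlap, by the rule that chose the exons. The Nkain4 exon is included in 96.8% to 100% of striatal and 62.5% to 95.2% of cortical reads.

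Of 49 listed genes of proteins that regulate splicing, 33 were tested, and Rbfox1 and Mbnl2 were higher in the striatum and Khdrbs3 in the cortex. These shares were near the 5.87% and 3.57% called over all tested genes. Khdrbs3 (SLM2), a STAR-family RNA-binding protein, had striatal levels of 10.8, 19.4, 10.2 and 15.9 CPM and cortical levels of 48.3, 60.1, 85.8 and 50.5 CPM. The log2 difference was -2.05 ± 0.33 (SE, edgeR adjusted p = 0.00252). Its levels did not overlap between the regions. Rbfox1 had 132, 141, 197 and 213 CPM in the striatal samples and 66.1, 78.1, 42.9 and 52.3 CPM in the cortical ones (log2 fold change 1.47 ± 0.28, SE, edgeR adjusted p = 0.0065), and Mbnl2 had 369, 364, 346 and 356 CPM in the striatum and 160.3, 214, 163 and 178 CPM in the cortex (log2 fold change 1.0 ± 0.23, SE, edgeR adjusted p = 0.0184), though the adjusted p of Mbnl2 was 0.05036 to 0.0733 without striatum 1 or 3 or cortex 2, 3 or 4 and 0.0573 with the striatal samples of 1 file.

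The number of exons per complete read, compared within genes, did not separate the regions. Over 1808 genes with at least 10 complete reads in every sample, the mean was 7.07 ± 0.075 in the striatum and 7.09 ± 0.033 in the cortex (SD, n = 4 each). The difference within genes of -0.018 had p = 0.71 in a two-sided exact permutation test over 70 arrangements, whose smallest p is 0.029. With the striatal samples of 2 files it was 0.0385 in the other direction. The shares of the 7 TALON classes did not pass the threshold either (exact permutation tests, adjusted p between 0.80 and 0.91). Known isoforms made up 65.6 ± 6.11% of striatal and 62.5 ± 2.80% of cortical reads, and incomplete matches 13.4 ± 2.09% and 15.98 ± 1.38%. The striatal spread was the larger of the 2 for known isoforms, and striatum 1 and 2 had 71.2% and 70.4% against 61.9% and 58.9% in striatum 3 and 4.

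Whether the difference between the regions was itself different in R6/2 mice was tested as an interaction over all 16 samples. Of 7390 genes tested, 194 had an unadjusted p under 0.05, a smaller share than the 0.05 that chance alone would give. After adjustment, 1 gene (0.0135%) passed the threshold. It was Lamp5, which encodes a protein of the LAMP family found in neurons, and its level in NT mice was 156 ± 18 CPM in the striatum and 320.0 ± 66.5 in the cortex. In R6/2 mice it was 119 ± 11.3 in the striatum and 77 ± 10.5 in the cortex (SD, n = 4 each). The cortical mean was thus above the striatal one in NT mice and below it in R6/2 mice, with an interaction of 1.69 ± 0.27 on the log2 scale (SE, edgeR adjusted p = 0.0476). Without 1 NT sample its adjusted p ranged from 0.0196 to 0.224, and it was not called without striatum 1, 2 or 3 or cortex 1, 2 or 4. None of the 75 genes named for the region comparison passed the threshold for the interaction in edgeR, and 10 of them had an unadjusted p under 0.05. Penk had an interaction of -0.89 ± 0.317 (unadjusted p = 0.0116) and Pde10a of -1.69 ± 0.558 (unadjusted p = 0.00705), with adjusted p of 0.9997 and 0.9997.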

How the data were processed

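RNA of striatum and cortex was sequenced as full-length cDNA on the PacBio platform. Consensus reads that held both adapters and poly(A) were aligned to mm10 by the authors with minimap2 (2.17-r941 per the submitters' processing notes), their splice junctions were corrected with TranscriptClean and TALON assigned each to an isoform. The authors deposited raw counts of reads per isoform, neither filtered nor normalized. The kit amplifies by PCR and no molecular identifiers are given, so intervals cover counting error only.

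Here, the counts of both files of striatum 1 and 2 were summed. Gene counts are sums over known, ISM (incomplete match), NIC and NNC isoforms of known genes, while ISM isoforms were left out of complete reads. Genes were tested with edgeR 4.0.16 (R 4.3.3; TMM, filterByExpr, quasi-likelihood test), isoform usage and cassette exons with diffSpliceDGE (at least 10 reads per isoform, or of each form), and single values per sample with two-sided exact permutation tests. The threshold was 0.05 after Benjamini-Hochberg adjustment. CPM, counts scaled to the TMM-normalized library size, were computed here. Exon structures come from GENCODE M21, in which 35492 of 35640 known isoforms were found, 33068 with the same exon number and length. Promoters come from RefSeq (GRCm38.p6). The gene, isoform usage, cassette exon and interaction tests were run on simulated counts with known changes. The simulated exon reads varied by counting error only. The permutation test was run on a set of values with a known answer.

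Named are the 12 genes of largest fold change in each direction that were called, had a mean of at least 20 reads in the higher region and did not overlap, up to 4 called members per list, 8 genes for isoform usage and 8 cassette exons without overlap, and 5 genes for the interaction. Some genes that meet these rules enter the counts but are not reported here. The members, lists and rules were chosen with earlier results of these data known. Results were recomputed with DESeq2 1.42.0, upper-quartile normalization, other filters, isoform classes and numbers of files, equal depth, isoform length as a term, a replicate block and leaving out each sample in turn. Leaving out striatum 3 and cortex 4 together was chosen after seeing the data.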

Additional observations from a re-analysis of the deposited data

Results flagged for a closer look

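Of 260 groups of 4 samples examined, 18 held a sample whose gap to its nearest neighbour was above Dixon's 95% critical value as a share of the group's range, where chance gives about 13.0. Among the levels of named genes (CPM), the gap was 0.916 of the range for Syndig1l in the striatum (striatum 2 high), 0.946 for Drd2 in the striatum (striatum 4 high), 1.0 for Cd4 in the cortex (the 1 sample with a read), 0.842 for E130012A19Rik in the cortex and 0.832 and 0.853 for Necab2 in the striatum and the cortex. It was 0.852 for Ugt8a in the striatum, and in the cortex 0.83 for Ier2, 0.865 for Ntm and 0.846 for mt-Atp6. Among summed list levels it was 0.965 and 0.953 for ependyma and choroid plexus in the striatum and the cortex, where striatum 3 and cortex 4 were high, and in the cortex 0.848 for immediate early genes and 0.96 for septum and pallidum. Exons per read in the cortex gave 0.943. In the striatum the Nkain4 exon inclusion and the Nkain4 isoform usage each gave 1.0, since striatum 1 alone had a read that skips the exon, and the Gpbp1 exon in the cortex gave 0.9.

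The difference between the regions differed between genotypes for Lamp5, by 1.69 on the log2 scale in the interaction test.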

How the results depend on the processing

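The direction of the named genes held under every alternative except for Ntm, whose log2 fold change was 0.50 when reads of the genomic class were added. The counts of genes higher in the striatum and in the cortex were 947 and 355 without a filter, 217 and 136 without ISM isoforms, 209 and 111 at equal depth, 899 and 710 with the striatal samples of 1 file, 613 and 371 with those of 2 files, 1037 and 439 with the number of files as a term, 808 and 488 with isoform length as a term and 117 and 62 without striatum 3 and cortex 4. In the cortical direction 346 genes were called with the genomic class added and 561 in a fit of all 16 samples. Isoform usage gave 21 genes with a gene-level F test, 22 with the striatal samples of 2 files and 5 with the number of files as a term. Cassette exons more included in the striatum were 1 with at least 20 reads of each form, with the first file only, with the samples of 1 file and with the number of files as a term, and 0 with the samples of 2 files. The interaction called 3 genes with the number of files as a term and 0 with the first file only. The difference in exons per read was 0.0385 with the samples of 2 files. The cause of these changes was not tested, apart from the smaller numbers of genes and samples that some alternatives use by construction.

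The deviations of same-numbered samples of the regions had correlations of -0.244, 0.259, 0.143 and -0.194. Those of samples with different numbers ranged from -0.223 to 0.307. The striatal samples also differed with their number of files, so these values cannot decide whether same-numbered samples come from 1 mouse. The main fit did not pair them because the labels give no pairs. With a replicate block, 189 and 118 genes, 1 gene for isoform usage and 1 cassette exon passed the threshold.

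Leaving out 1 sample at a time gave 211 to 430 genes higher in the striatum, 131 to 319 in the cortex, 0 to 1 for the interaction, 0 to 11 for isoform usage and 0 to 2 and 0 to 0 cassette exons. The difference in exons per read ranged from -0.0404 to 0.0154, and those of class shares in percentage points from 1.26 to 5.36 (known), -3.42 to -1.80 (ISM), -0.53 to 0.23 (NIC), 0.22 to 0.57 (NNC), -0.93 to 1.21 (genomic), -1.79 to 0.20 (antisense) and -0.23 to 0.11 (intergenic). With the block 16 of the 75 named genes lost their call, and without striatum 3 and cortex 4 26 of the 71 tested. The shallowest library had 252885 reads, and genes that did not pass the filter on low counts were not tested.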

Other observations

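Further lists were examined for tissue next to the striatum or cortex that a dissection could hold. For ependyma and choroid plexus, 1 of 10 listed genes was tested and it was not called, while the summed level was 64.9 to 9969 CPM in the striatal samples and 20.03 to 891 CPM in the cortical ones, with Ttr as its main part. Of 6 thalamic markers none passed the filter, and their summed level was 5.32 to 61.3 CPM in the striatal samples and 55.8 to 81.1 CPM in the cortical ones. For septum and pallidum, 1 of 6 was tested and none called, with 21.3 to 41.9 CPM in the striatal samples and 21.4 to 46.1 CPM in the cortical ones. For dentate gyrus, 2 of 5 were tested and none called, with 548 to 672 CPM in the striatal samples and 409.5 to 626 CPM in the cortical ones. For dopamine neuron bodies, 1 of 6 was tested and none called, with 22.4 to 60.1 CPM in the striatal samples and 24 to 55.8 CPM in the cortical ones.

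Of the 96 gene identifiers matched to the 95 symbols listed for splicing regulated by tissue, 14 of 79 tested were higher in the striatum as whole genes and 9 in the cortex, against 5.87% and 3.57% of all tested genes. The list holds Penk, Ppp1r1b, Rgs9, Pde10a, Pde1b and Gnal, which are also listed for striatal projection neurons and were higher in the striatum. The striatal share is thus set in part by the choice of members. The tested members had a median log2 fold change of -0.04. Among those higher in the cortex were the calcium pump gene Atp2b4 (log2 fold change -2.28 ± 0.36, SE, edgeR adjusted p = 0.00245), the dynamin gene Dnm1 (log2 fold change -1.81 ± 0.41, SE, edgeR adjusted p = 0.0178) and the stathmin gene Stmn2 (log2 fold change -1.54 ± 0.28, SE, edgeR adjusted p = 0.00477). Of the microglial list as a whole, the summed level was 829 to 1138 CPM in the striatal samples and 511 to 730.1 CPM in the cortical ones, of the astrocyte list 13112 to 18395 CPM in the striatal samples and 8945 to 12879 CPM in the cortical ones, and of the endothelial and pericyte list 420.0 to 602 CPM in the striatal samples and 481 to 528 CPM in the cortical ones. The first and the second of these sums did not overlap between the regions, and the third did, while few of their genes were called.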
